A study of Mus musculus with 12 samples.

Results

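Plasminogen activation was followed through 5 genes: the urokinase-type activator Plau, the tissue-type activator Plat, the urokinase receptor Plaur, and the serpins Serpine2 and Serpinb2. They were picked by symbol from a table of 55421 genes, each symbol matched 1 Ensembl gene, and all 5 were among the 18108 genes with enough counts to be tested. Polyadenylated RNA was sequenced from MOC2, a mouse oral squamous carcinoma line, in 12 libraries that formed 4 groups of 3. The derivative MOC2-25 was labelled EV-proficient, meaning that it releases extracellular vesicles, and MOC2-27 was labelled EV-deficient, its release having been blocked genetically in a gene that the labels do not name. Each derivative was sampled as a control with DMSO and after 48 h in 600 nM paclitaxel, a microtubule-stabilising drug used here to induce senescence. All groups grew in a serum medium that also held hydrocortisone, cholera toxin, insulin, transferrin, thyroid hormone and epidermal growth factor. Each EV label was carried by 1 derivative, so the label and any other difference between the derivatives cannot be told apart. The labels do not say that replicates were separate cultures, so p-values measure the spread between these libraries, which may be technical.

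Plasminogen activators are secreted serine proteases that cut the zymogen plasminogen into plasmin, a broad protease that dissolves fibrin and helps to degrade the matrix around cells. Urokinase works mainly while bound to its receptor, a surface protein tethered by a lipid anchor, whereas the tissue-type activator works best on fibrin. Serpins are suicide inhibitors: a protease that cuts their reactive loop stays trapped in a covalent complex, and such complexes are taken up by receptors of the LDL receptor family. In squamous epithelium the urokinase system is known for its part in migration, wound closure and tumour invasion, and several of its genes are counted among the secreted factors of senescent cells.

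Library totals ran from 23263472 to 62955757 counts. The values below are CPM, that is counts scaled to a common library size, adjusted by trimmed mean of M values, and 3 counts corresponded to at most 0.121 CPM in the shallowest library. Of 9 epithelial markers, Krt8, Krt18, Krt14, Cdh1, Epcam, Itga6 and Itgb4 were abundant, while Krt5 and Trp63, which define basal squamous cells, had at most 8 and 11 counts in any library. Their summed level ran from 5840 to 6350 CPM in the DMSO groups and from 3680 to 4600 CPM under paclitaxel. Within that sum Krt14 averaged 191 CPM in both EV-proficient groups, whereas the EV-deficient means were 681 CPM without the drug and 80.003 CPM with it. Leukocyte, endothelial and fibroblast markers summed to at most 46.9, 4.35 and 8.64 CPM in any library, Ptprc, the defining leukocyte gene, had at most 60 counts, and Cd3e had at most 2. The leukocyte sum, carried by Cd68 and Csf1r, was from 7.38 to 21.6 CPM in the DMSO groups and from 26.5 to 46.9 CPM under paclitaxel. Fibroblast markers summed to 1.58 to 3.33 CPM with DMSO and 5.18 to 8.64 CPM with paclitaxel. The part of these markers in the results was not tested. The authors also counted a dngfr sequence, without saying which derivative carries it. It stood at 5.72 to 12.2 CPM in EV-proficient DMSO and 9.62 to 12.4 CPM in EV-deficient paclitaxel libraries, against 1.89 to 2.54 CPM in EV-deficient DMSO and 2.47 to 3.76 CPM in EV-proficient paclitaxel libraries. The second principal component of all genes crossed in the same way: it ran from 27.2 to 43.5 in EV-proficient DMSO and EV-deficient paclitaxel libraries and from -64.6 to -20.6 in the other libraries. On both measures the libraries did not group by derivative as labelled. Every paclitaxel effect within a derivative, every difference between EV labels under paclitaxel and every interaction below is therefore that of the libraries as labelled. Beside many of them, though not all, stand values with the EV labels of the paclitaxel libraries exchanged, an alternative chosen after the data were seen. With that exchange 1739 genes passed for the interaction in place of 7372. Which assignment holds was not tested. If the DMSO labels were the exchanged ones instead, each difference between EV labels under DMSO would turn its sign by construction, and the interactions would be those of the paclitaxel exchange with their signs turned. The paclitaxel effect averaged over both derivatives is the same under all of these assignments. The mitochondrial share of counts averaged 0.653% and 0.644% in the DMSO groups and 0.878% and 1.27% in the EV-proficient and EV-deficient paclitaxel groups, and its part in the results was not tested.

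Upstream sequence was available for 3 of the 5 genes from RefSeq on GRCm38.p6. The 250 bases before a start site are shown for Plaur and Serpinb2, both of which were lower under paclitaxel on average but differed in base composition. Capitals mark a match on either strand to 4 short motifs: the AP-1 heptamer TGAGTCA, the cyclic AMP response octamer TGACGTCA, the GC box GGGCGG and the TATA box TATAAA.
Plaur, chr7:24462233-24462482, plus strand: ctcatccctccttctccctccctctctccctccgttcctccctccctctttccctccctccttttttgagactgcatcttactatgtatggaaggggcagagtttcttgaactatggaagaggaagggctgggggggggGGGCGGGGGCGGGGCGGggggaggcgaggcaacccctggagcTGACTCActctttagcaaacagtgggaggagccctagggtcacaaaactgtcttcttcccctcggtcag
Serpinb2, chr1:107511173-107511422, plus strand: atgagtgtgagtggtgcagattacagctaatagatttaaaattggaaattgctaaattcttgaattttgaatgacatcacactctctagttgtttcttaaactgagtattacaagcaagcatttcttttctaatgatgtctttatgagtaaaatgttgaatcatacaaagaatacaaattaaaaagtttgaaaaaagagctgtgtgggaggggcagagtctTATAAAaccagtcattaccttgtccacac
The Plaur window was 59.6% G and C. It held 1 AP-1 heptamer, as its reverse complement TGACTCA, from 69 to 63 bases before the start, and 3 GC boxes between 111 and 95 bases before the start, of which the last pair share a base. The Serpinb2 window was 32.4% G and C and of the 4 motifs held only a TATA box, from 29 to 24 bases before the start. The table lists a second Serpinb2 start nearby, whose overlapping window, not printed, was 38.4% G and C and held the same TATA box from 116 to 111 bases before that start. Of 32817 such windows in the mouse table, 4.46% held the AP-1 heptamer, 1.55% the cyclic AMP octamer, 32.7% the GC box and 12.4% the TATA box. The matches describe letters and were not tied to any measurement of binding.

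Of the activators, Plat rose with paclitaxel in both derivatives, 1.69-fold in the libraries labelled EV-proficient and 5.43-fold in those labelled EV-deficient. As labelled, Plau rose 1.29-fold in the EV-proficient cells and fell in the EV-deficient cells to 0.581 of its DMSO level. With the paclitaxel labels exchanged Plau fell in both, by 0.18 and 0.23 (log2), and Plat rose by 1.67 and 1.52 (log2). In bulk RNA a smaller share of expressing cells and less RNA per cell cannot be told apart.

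Plau (ENSMUSG00000021822, GRCm38 chromosome 14 from 20836660 to 20843385, plus strand) was among the more abundant of the 5 genes. Its libraries stood at 221, 219.8 and 194 CPM in EV-proficient DMSO and at 279, 281 and 262 CPM in EV-proficient paclitaxel. The EV-deficient libraries stood at 332, 317 and 315 CPM under DMSO and at 188, 202 and 170.3 CPM under paclitaxel. The 3 treated EV-proficient libraries lay above their controls, and the 3 treated EV-deficient libraries lay far below theirs. The log2 fold changes were 0.37 ± 0.07 (SE, edgeR quasi-likelihood adjusted p 7.21e-05) and -0.78 ± 0.07 (SE, edgeR adjusted p 1.62e-09). EV-deficient DMSO libraries were highest, and EV-deficient paclitaxel overlapped EV-proficient DMSO at the bottom of the order. On unscaled library totals the lowest mean was instead EV-proficient DMSO, at 195 CPM against 212 CPM in EV-deficient paclitaxel. The highest means, EV-deficient DMSO and EV-proficient paclitaxel, were then close, at 291 and 289 CPM. Averaged over both derivatives the change was -0.21 ± 0.05 (log2, SE; edgeR adjusted p 6.37e-04), and the 6 treated libraries overlapped the 6 controls. With upper-quartile scaling this average was -0.084 and was not called.

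Plat (ENSMUSG00000031538, chromosome 8 from 22757727 to 22782844, plus strand) was much less abundant than Plau. It stood at 15.4, 16.8 and 15.5 CPM in EV-proficient DMSO and at 25.4, 27.7 and 27.3 CPM in EV-proficient paclitaxel libraries. The EV-deficient libraries held 9.85, 9.19 and 8.99 CPM under DMSO and 54.6, 47.4 and 50.2 CPM under paclitaxel. No group overlapped another, and the order from EV-deficient DMSO through EV-proficient DMSO and EV-proficient paclitaxel to EV-deficient paclitaxel climbed by 1.7-, 1.69- and 1.89-fold at each step. The paclitaxel effect was 0.75 ± 0.08 (log2, SE; edgeR adjusted p 9.00e-08) in the EV-proficient and 2.44 ± 0.09 (SE; edgeR adjusted p 2.88e-15) in the EV-deficient cells. Averaged over both it was 1.60 ± 0.06 (log2, SE; edgeR adjusted p 2.47e-15), or 3.02-fold, higher in 6 of 6 treated libraries. Of all genes tested, 12.1% changed more than Plat in that average.

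**Figure D1:**
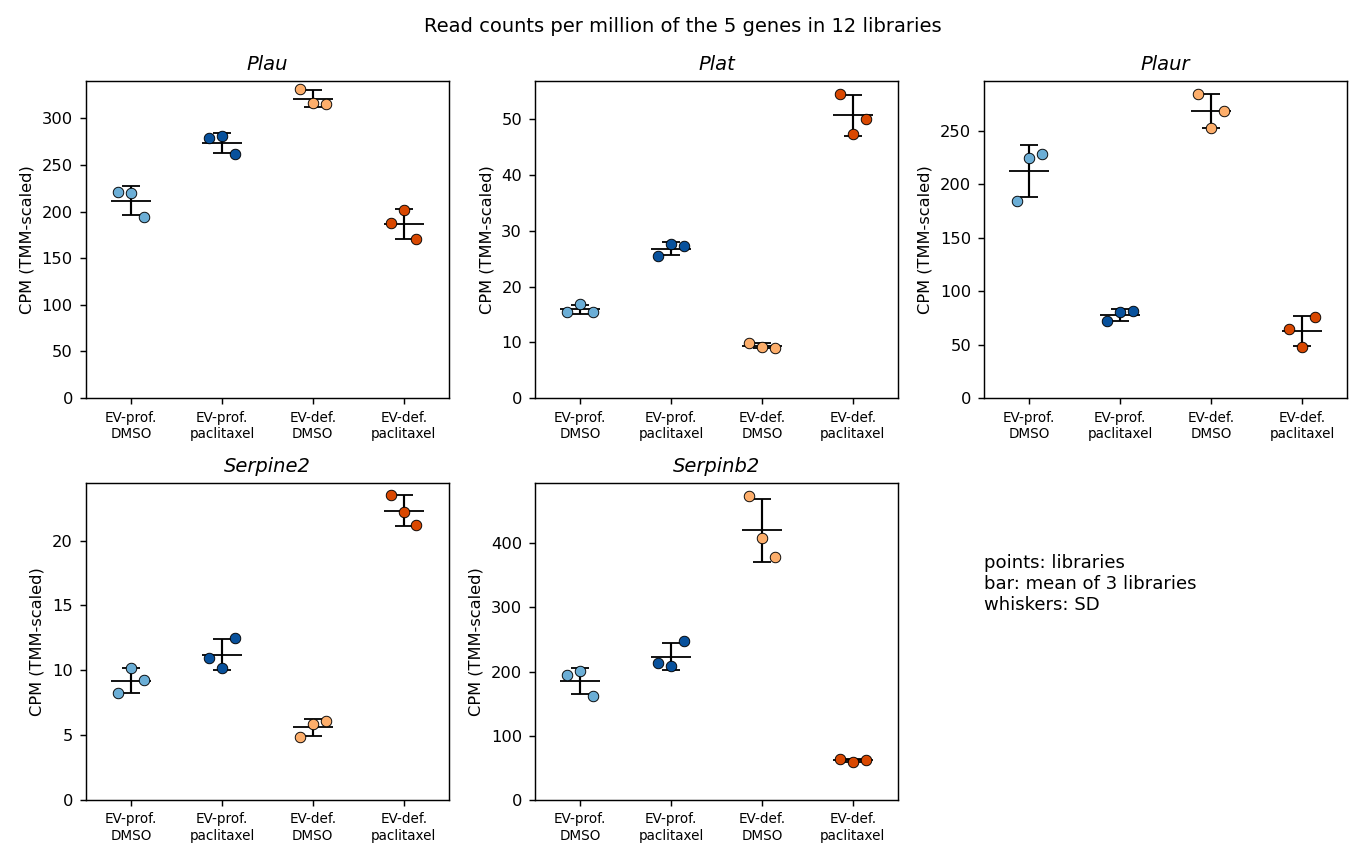
CPM of the 5 genes on scaled library sizes (vertical axis, from 0) in the 4 groups (horizontal axis); points are libraries, bars are means of 3 libraries and whiskers are SD. Plat and Serpine2 are highest in EV-deficient paclitaxel libraries, at 50.7 and 22.3 CPM, where Serpinb2 is lowest at 61.4 CPM, and Plaur is lower in both paclitaxel groups.

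The receptor gene Plaur (ENSMUSG00000046223, chromosome 7 from 24462484 to 24475968, plus strand) fell in both derivatives. It stood at 184, 224 and 228 CPM in EV-proficient DMSO and 284, 252 and 268 CPM in EV-deficient DMSO libraries. Under paclitaxel it stood at 71.6, 80.3 and 81.1 CPM in the EV-proficient and at 64.5, 47.65 and 76 CPM in the EV-deficient cells. Every treated library was below every control library, and the treated groups of the derivatives overlapped. The fall was -1.45 ± 0.12 (log2, SE; edgeR adjusted p 6.81e-10) in the EV-proficient and -2.10 ± 0.12 (SE; edgeR adjusted p 1.86e-12) in the EV-deficient cells. Averaged over both, paclitaxel left 0.292 of the control level (log2 -1.77 ± 0.08 SE, edgeR adjusted p 5.42e-14), and 10.2% of tested genes changed more. The falls were 1.76 and 1.79 (log2) with the paclitaxel labels exchanged. EV-deficient paclitaxel had an SD of 14.3 CPM around 62.7 CPM, its lowest library being replicate 2.

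Serpine2, also called protease nexin-1, inhibits thrombin, urokinase and the tissue-type activator at the cell surface. It (ENSMUSG00000026249, chromosome 1 from 79794197 to 79861180, minus strand) was the least abundant of the 5 genes. Libraries stood at 8.21, 10.2 and 9.22 CPM in EV-proficient DMSO and at 10.9, 10.2 and 12.5 CPM in EV-proficient paclitaxel, so that these groups met at 10.2 CPM. The EV-deficient libraries stood at 4.87, 5.84 and 6.05 CPM under DMSO and at 23.5, 22.2 and 21.2 CPM under paclitaxel, with no overlap. Serpine2 rose there (log2 2.00 ± 0.12 SE, edgeR adjusted p 5.38e-12). Under exchanged paclitaxel labels it rose in both derivatives, by 1.28 and 1.00 (log2). In the EV-proficient cells its log2 fold change of 0.28 ± 0.12 (SE) did not pass the threshold (edgeR adjusted p 0.0521). It did pass with upper-quartile scaling (0.34), with a filter of 1 CPM in 3 libraries (0.29) and without EV-proficient DMSO replicate 2 (0.36).

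Serpinb2, or plasminogen activator inhibitor 2, is a clade B serpin that stays largely inside cells and can also inhibit urokinase outside them. It (ENSMUSG00000062345, chromosome 1 from 107511423 to 107535478, plus strand) had the widest range, 6.84-fold between its highest and lowest group means. It stood at 195, 200.5 and 163 CPM in EV-proficient DMSO and at 214, 208 and 247 CPM in EV-proficient paclitaxel libraries. The EV-deficient libraries stood at 474, 408 and 378 CPM under DMSO and at 64.1, 58.9 and 61.3 CPM under paclitaxel. The EV-deficient groups were thus the highest and the lowest of the 4, and no neighbours in the order overlapped. Paclitaxel left 0.146 of the control level in the EV-deficient cells (log2 -2.77 ± 0.09 SE, edgeR adjusted p 1.26e-15), a change that 6.20% of tested genes exceeded. In the EV-proficient cells it rose by 0.26 ± 0.09 (log2, SE; edgeR adjusted p 0.0129). With the paclitaxel labels exchanged Serpinb2 fell in both derivatives, by 1.60 and 0.91 (log2). The rise as labelled was not called without EV-proficient DMSO replicate 3 (0.17) or without EV-proficient paclitaxel replicate 3 (0.14). The annotated Serpinb10 gene overlaps Serpinb2 on the same strand and had at most 4 counts in any library.

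Of the 5 genes, 4 passed the threshold for paclitaxel in the EV-proficient cells, where 58.2% of all tested genes did, and 5 in the EV-deficient cells, where 62.9% did. The average over both derivatives was called for all 5, against 68.4% of tested genes: Plat and Serpine2 (log2 1.14 ± 0.08 SE, edgeR adjusted p 8.78e-11) were higher, and Plaur, Serpinb2 (-1.26 ± 0.06 SE, edgeR adjusted p 1.44e-13) and Plau were lower. The treated and control libraries of Serpinb2 and of Plau overlapped when the derivatives were pooled. Since most tested genes were called, the directions and sizes, rather than the counts, describe these genes. As labelled, Plau and Serpinb2 were called in both derivatives with opposite signs, as were 7.09% of tested genes; with the paclitaxel labels exchanged both fell in both.

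Between EV labels as given, each of the 5 genes differed in opposite directions with and without the drug. Exchanging the paclitaxel labels turns the sign of every difference under paclitaxel by construction, so that the directions would then be the same under both treatments. Exchanging the DMSO labels instead would turn the sign of every difference under DMSO. Under DMSO, Serpinb2 (log2 1.18 ± 0.09 SE), Plau (0.60 ± 0.07 SE) and Plaur (0.34 ± 0.11 SE) were higher in the libraries labelled EV-deficient, and Plat (-0.77 ± 0.09 SE) and Serpine2 (-0.72 ± 0.12 SE) were lower. Under paclitaxel, Plat (0.92 ± 0.08 SE) and Serpine2 (1.00 ± 0.11 SE) were higher there, and Serpinb2 (-1.86 ± 0.09 SE), Plau (-0.55 ± 0.07 SE) and Plaur (-0.31 ± 0.11 SE) were lower. All 5 passed in each comparison, against 23.0% of tested genes under DMSO and 37.8% under paclitaxel, with edgeR adjusted p-values of at most 0.0409, that of Plaur under paclitaxel. Of all tested genes 15.0% differed under both treatments with opposite signs, so the crossing was shared by many genes.

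Plaur was the weakest of these differences. Under DMSO it (edgeR adjusted p 0.0316) was not called with median-of-ratios scaling (0.32), upper-quartile scaling (0.31) or DESeq2 (0.32). Nor was it called without EV-proficient DMSO replicate 1 (0.25), EV-deficient DMSO replicate 1 (0.30) or 3 (0.35), EV-deficient paclitaxel replicate 1 (0.30) or any single EV-proficient paclitaxel library (0.30 each). Under paclitaxel its groups overlapped, and it was not called with median-of-ratios scaling (-0.28), upper-quartile scaling (-0.21), DESeq2 (-0.29), a filter of 1 CPM in 3 libraries (-0.26) or only the groups compared (-0.28). It was also not called without EV-proficient paclitaxel replicate 2 (-0.27) or 3 (-0.28), or without EV-deficient paclitaxel replicate 1 (-0.33) or 2 (-0.13).

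Whether paclitaxel acted differently in the derivatives was tested as the interaction, the effect in EV-deficient minus that in EV-proficient cells. All 5 genes passed, against 40.7% of tested genes. Serpinb2 had the largest difference of the 5, -3.04 ± 0.12 (log2, SE; edgeR adjusted p 4.11e-14), exceeded in size by 3.77% of tested genes. Serpine2 (1.72 ± 0.17 SE, edgeR adjusted p 3.97e-08) and Plat (1.69 ± 0.12 SE, edgeR adjusted p 2.24e-10) were positive. Plau (-1.15 ± 0.10 SE, edgeR adjusted p 3.63e-09) and Plaur (-0.64 ± 0.16 SE, edgeR adjusted p 0.00257) were negative. As labelled, for Plaur both effects were falls of unequal size, whereas those of Plau and Serpinb2 had opposite signs. No other scaling, filter, tool, block or left-out library changed the call or sign of any of these 5 interactions. Under exchanged paclitaxel labels they were -0.049 for Plau, -0.15 for Plat, -0.034 for Plaur and -0.28 for Serpine2, none of which passed (edgeR adjusted p at least 0.317). That of Serpinb2 was then 0.68 ± 0.12 (log2, SE; edgeR adjusted p 0.00143).

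**Figure D2:**
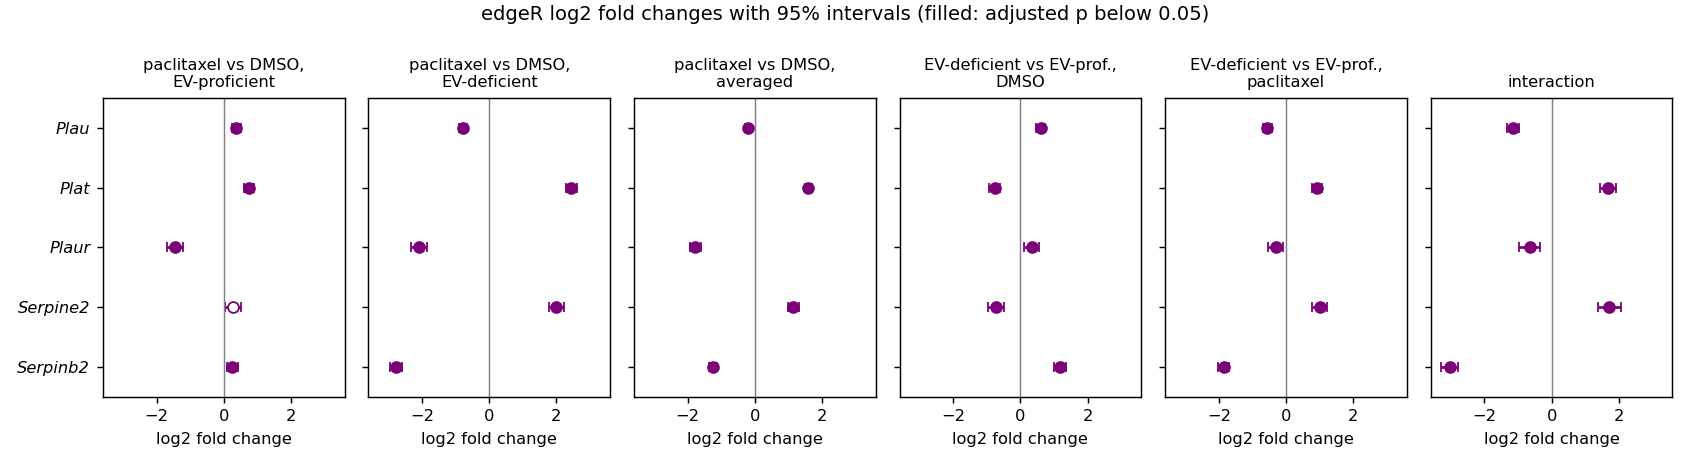
Log2 fold changes from edgeR (horizontal axes, 1 panel for each of 6 comparisons) of the 5 genes (rows), with 95% intervals; filled points had an adjusted p below 0.05. The panels for the EV labels under DMSO and under paclitaxel mirror each other in sign for all 5 genes as labelled, and Serpine2 in the EV-proficient cells, at 0.28, is the only open point.

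Levels of different genes were compared per kilobase of exon (RPKM, scaled CPM over the union of annotated exons). Plau stood at 89.5 ± 6.5 RPKM in EV-proficient DMSO libraries, close to Plaur (81.1 ± 9.3) and Serpinb2 (79.1 ± 8.7), while Plat (2.55 ± 0.12) and Serpine2 (1.11 ± 0.12) were far lower (SD, n = 3 each). The ratio of Plau to Plat in a library was 35.1 ± 2.5 in EV-proficient DMSO and 27.0 ± 1.9 in EV-proficient paclitaxel (SD, n = 3 each). In the EV-deficient cells it was 90.8 ± 1.8 under DMSO and 9.75 ± 1.28 under paclitaxel (SD, n = 3 each), so that urokinase transcripts remained the more abundant of the activators in every library. Read with the paclitaxel labels exchanged, this ratio went from 35.1 to 9.75 and from 90.8 to 27.0.

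Serpinb2 exceeded Serpine2 by 71.8 ± 10.9 times in EV-proficient DMSO and 70.4 ± 1.6 times in EV-proficient paclitaxel libraries, and these ranges overlapped. In EV-deficient libraries the ratio was 270.3 ± 64.6 under DMSO and 9.72 ± 0.44 under paclitaxel (SD, n = 3 each; all on the RPKM scale). Exchanged, the same values read 71.8 to 9.72 and 270.3 to 70.4, a lower mean with paclitaxel in both derivatives. Plau and its receptor were close to level without drug, with Plau to Plaur ratios of 1.12 ± 0.20 and 1.33 ± 0.05 in the EV-proficient and EV-deficient cells. Under paclitaxel the ratios were 3.91 ± 0.37 and 3.46 ± 1.12 (SD, n = 3 each), and the lowest of the 6 treated libraries was at 2.48. These ratios depend on the exon length used, and over the longest transcript 16 of the 20 group levels moved by at least their SD. Serpine2 and Plat then stood at 2.71 and 3.93 RPKM in EV-proficient DMSO, still below the other 3 genes, while Plaur (105.65) stood above Plau (90.4). The mean Plau to Plaur ratios became 0.867 and 1.03 without drug and 3.04 and 2.69 with it, and the lowest treated library was at 1.92. Over the longest transcript Plau to Plat went from 23.0 to 17.6 in the EV-proficient and from 59.4 to 6.38 in the EV-deficient cells. Serpinb2 to Serpine2 went from 34.6 to 33.9 and from 130.2 to 4.68. A change of length scales a ratio by 1 factor in every library, so the order of the groups is unaltered.

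**Figure D3:**
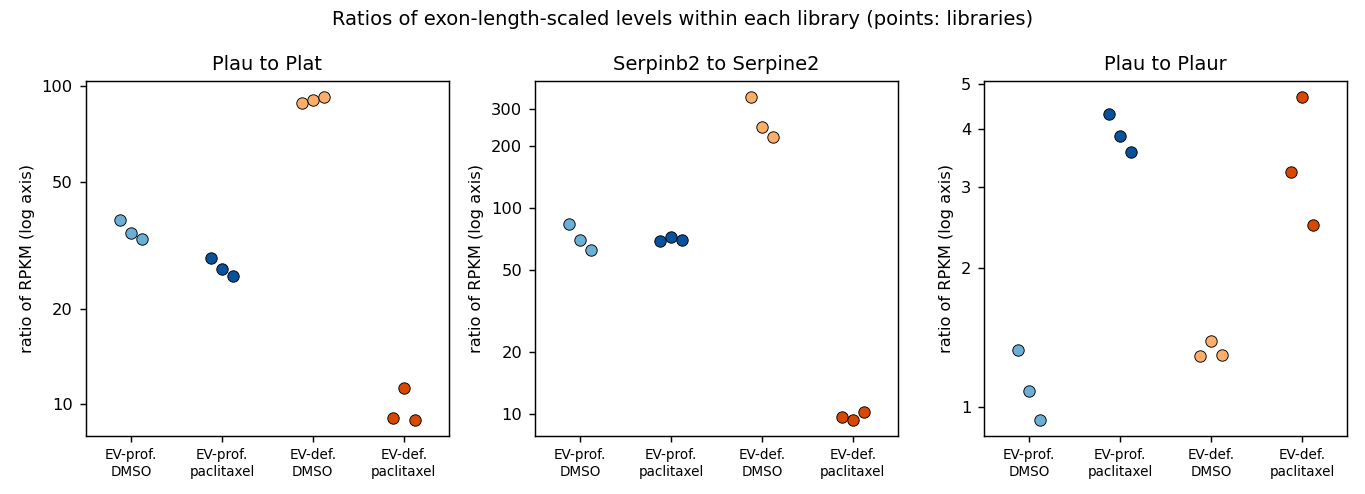
Ratios of RPKM between pairs of the 5 genes in each library (vertical log axes; points are libraries, groups on the horizontal axis). The ratios of Plau to Plat and of Serpinb2 to Serpine2 are highest in EV-deficient DMSO and lowest in EV-deficient paclitaxel libraries, at 9.75 and 9.72, and Plau to Plaur is higher in both paclitaxel groups.

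The genes whose log2 CPM followed each of the 5 most closely were ranked by Pearson correlation over the 12 libraries, among 9883 genes with a mean of at least 5 CPM. The libraries form 4 groups, so a high value mostly says that group means were ordered alike. Plau was followed by Rab11fip4 (0.98), Ppp1r14c (0.98) and Slc46a1 (0.96), and Plat by Ctsb (0.99), Ndrg4 (0.99) and Tmem176a (0.99). Plaur was followed by Wdr46, Cactin and Nol6 (1.00 each after rounding). Serpine2 was followed by Ddx58, Bex2 and Phactr2 (0.98 each), and Serpinb2 by Elmo2 (0.99) and Bcat1 (0.99). Ctsb, a lysosomal cysteine protease, went from 368 to 414 CPM in the EV-proficient and from 316 to 488 CPM in the EV-deficient cells, a narrower range than that of Plat. Bcat1, an enzyme of branched-chain amino acid metabolism, went from 26.4 to 33.3 CPM and from 64.8 to 7.43 CPM, the group order of Serpinb2. By rank correlation 0 to 1 of each set of 3 genes stayed among the first 3, so the names depend on the measure.

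Plasminogen itself and the genes that hold it at the surface were taken next. Plg, the zymogen, had at most 2 counts in any library and was not tested, so its transcript was not detectable above the floor of 3 counts. Of 14 genes for plasminogen, its docking and plasmin inhibition, 7 were tested. In the average over both derivatives 3 were higher and 3 lower, where 68.4% of all tested genes were called, with a median log2 fold change of 0.24 against 0.07 for all genes tested. The 3 that fell are the abundant docking genes. Eno1, a glycolytic enzyme that also binds plasminogen, fell from 2641 ± 155 to 1173 ± 31 CPM in the EV-proficient and from 2570.4 ± 143.6 to 1172 ± 118 CPM in the EV-deficient cells. Its interaction, 0.04 ± 0.10 (log2, SE; edgeR adjusted p 0.796), did not pass, and close Eno1 copies in the genome make its count uncertain. Anxa2 and S100a10, whose proteins form a heterotetramer that docks plasminogen and the tissue-type activator, fell together, by 1.21 and 1.29 (log2) in the EV-proficient and by 0.55 and 0.46 in the EV-deficient cells. Under exchanged paclitaxel labels Anxa2 fell by 0.95 and 0.81 and S100a10 by 0.89 and 0.87 (log2). Plgrkt, a plasminogen receptor, rose by 0.79 ± 0.09 (log2, SE; edgeR adjusted p 1.36e-07) in the EV-deficient cells and changed by 0.17 in the EV-proficient cells, which did not pass. Both of its changes passed under exchanged labels, at 0.61 in the EV-proficient and 0.35 in the EV-deficient cells (log2).

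Receptors that take up protease and serpin complexes, together with partners of the urokinase receptor, numbered 18, of which 15 were tested. As labelled, 8 were higher and 6 lower with paclitaxel in the EV-proficient cells, where 58.2% of all tested genes were called. In the EV-deficient cells 4 were higher and 6 lower, where 62.9% were called. The median log2 fold changes were 0.41 and -0.11, against 0.05 and 0.07 for all genes tested. Under exchanged paclitaxel labels the counts were 7 higher and 4 lower, then 5 higher and 6 lower, with medians of 0.13 and 0.015, where 61.4% and 56.9% of all tested genes were called and their medians were 0.10 and 0.05. Lrp1, the main clearance receptor for these complexes, rose from 19.4 ± 2.0 to 95.4 ± 2.8 CPM in the EV-proficient and from 46.8 ± 3.4 to 69.6 ± 16.1 CPM in the EV-deficient cells (SD, n = 3 each). Vldlr, a related receptor, rose by 2.02 ± 0.11 and 0.65 ± 0.10 (log2, SE), and the integrin subunit Itgb5 by 1.93 ± 0.07 and 0.78 ± 0.06 (log2, SE). Under exchanged labels the rises were 1.84 and 1.03 for Lrp1, 1.41 and 1.26 for Vldlr, and 1.69 and 1.03 for Itgb5 (log2). Sorl1, a sorting receptor of the same family, rose from 5.50 ± 0.81 to 57.9 ± 2.4 CPM in the EV-proficient cells (SD, n = 3 each). In the EV-deficient cells Sorl1 fell by 0.32 ± 0.09 (log2, SE), a call that was lost with upper-quartile scaling (-0.13). Sorl1 rose in both, by 2.08 and 0.99 (log2), with the paclitaxel labels exchanged.

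Lrp2, or megalin, rose as labelled from 26.0 ± 3.9 to 77.5 ± 7.3 CPM in the EV-proficient cells and fell from 174.4 ± 1.4 to 26.6 ± 5.1 CPM in the EV-deficient cells (SD, n = 3 each). Its interaction was -4.29 ± 0.16 (log2, SE; edgeR adjusted p 6.49e-15), of the same sign as that of Serpinb2 as labelled. With the paclitaxel labels exchanged its changes were 0.032, which did not pass (edgeR adjusted p 0.819), and -1.17 (log2), and the interaction was -1.20, opposite in sign to the 0.68 of Serpinb2.

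Among 26 other clade B serpins, which mostly act inside cells, 12 were tested, and 6 of these averaged at least 5 CPM over all libraries. Serpinb7 had 17 to 20 counts in EV-deficient paclitaxel libraries and at most 7 in any other library. It passed the filter on counts only through that group, so its higher level there was a condition of its being tested. As labelled, 4 rose and 4 fell with paclitaxel in the EV-proficient cells, where 58.2% of all tested genes were called, with a median log2 fold change of -0.017 (-0.080 with genes at the count floor set to their bound) against 0.05 for all genes tested. Those that fell were Serpinb5, Serpinb6a, Serpinb9b and Serpinb1b, named after their values were seen. Serpinb1b averaged under 5 CPM and is outside the naming rule. The Serpinb9b call (-0.51) was lost with DESeq2 (-0.52) and without EV-proficient DMSO replicate 2 (-0.49) or 3 (-0.42). It was also lost without EV-proficient paclitaxel replicate 2 (-0.45), and under exchanged labels Serpinb9b rose by 1.11 (log2). In the EV-deficient cells 8 rose and 1, Serpinb5, fell, where 62.9% of all tested genes were called. The median log2 fold change there was 0.70, against 0.07 for all genes tested, and that of Serpinb2 was -2.77. Against the 56.9% called under exchanged labels, 4 rose and 2 fell there, Serpinb5 and Serpinb6a, with a median of 0.094 beside -0.91 for Serpinb2. In the EV-proficient cells 8 rose and 2 fell under that exchange, with a median of 0.85, against 61.4% called. Serpinb5, also called maspin, fell by 1.33 ± 0.09 (log2, SE) in the EV-proficient and by 0.42 ± 0.09 (log2, SE) in the EV-deficient cells as labelled, and by 0.89 and 0.87 under exchanged labels. Among 33 serpins of other clades 10 were tested, and only 2 of these averaged at least 5 CPM over all libraries. The counts and medians below rest mostly on genes under that level. As labelled, 2 were higher and 3 lower in the EV-proficient cells, against 58.2% called, with a median log2 fold change of 0.26 (0.20 with genes at the floor set to their bound). In the EV-deficient cells 8 were higher and 0 lower, against the same 62.9% called. Their median log2 fold change there was 1.76, against 0.07 for all genes tested. Under exchanged labels 6 were higher and 0 lower in the EV-proficient and 5 and 0 in the EV-deficient cells, with medians of 1.27 and 0.43. Of all tested genes 61.4% and 56.9% were then called, with medians of 0.10 and 0.05. Serpinh1, a collagen chaperone that inhibits no protease, went from 45.4 ± 4.4 to 12.8 ± 1.1 CPM in the EV-proficient and from 9.42 ± 0.72 to 46.1 ± 2.8 CPM in the EV-deficient cells (SD, n = 3 each). Its interaction of 4.11 ± 0.13 (log2, SE; edgeR adjusted p 8.67e-16) was opposite in sign to that of Serpinb2 as labelled. With the labels exchanged it was 0.43, of the same sign as the 0.68 of Serpinb2.

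Genes that share the LY6 and urokinase receptor domain of Plaur numbered 26, of which 13 were tested. Only 4 of the 13 averaged at least 5 CPM over all libraries. In the average over both derivatives 6 were higher and 3 lower, near the 68.4% called among all tested genes, with a median log2 fold change of 0.37 against 0.07. Ly6c1 had the largest averaged change of the called list genes with at least 5 CPM, a rise of 1.08 ± 0.06 (log2, SE; edgeR adjusted p 2.24e-12). Ly6a rose by 0.37 ± 0.05 (log2, SE), whereas Lypd3 fell by 0.73 ± 0.10 (log2, SE). Lypd3, a member found in squamous epithelium, fell by 1.22 ± 0.15 (log2, SE; edgeR adjusted p 2.36e-07) in the EV-deficient cells. In the EV-proficient cells its change of -0.24 ± 0.15 did not pass (log2, SE; edgeR adjusted p 0.172). Under exchanged labels Lypd3 fell in both, by 0.73 each (log2).

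Membrane serine proteases with their inhibitors and the hepatocyte growth factor axis, whose precursor urokinase can cleave, gave 15 tested genes of 17, of which 11 were higher and 1 lower on average. Of all tested genes 68.4% were called in that average, and 54.2% of those calls were higher. Prss22, a tryptase that can activate pro-urokinase, rose from 59.1 ± 2.2 to 234 ± 23 CPM in the EV-proficient cells. In the EV-deficient cells it stood at 85.6 ± 4.5 and 86.6 ± 27.1 CPM (SD, n = 3 each), a difference that did not pass (edgeR adjusted p 0.935). Prss22 rose by 0.55 and 1.45 (log2) with the paclitaxel labels exchanged. Of 14 genes of coagulation at the surface 8 were tested, with 3 higher and 4 lower on average, against the same 68.4% called. Thbs1, a matrix glycoprotein, fell by 1.32 ± 0.06 (log2, SE) in the EV-proficient cells and rose by 0.29 ± 0.06 (log2, SE) in the EV-deficient cells, and with the paclitaxel labels exchanged it fell by 0.38 and 0.66.

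**Figure D4:**
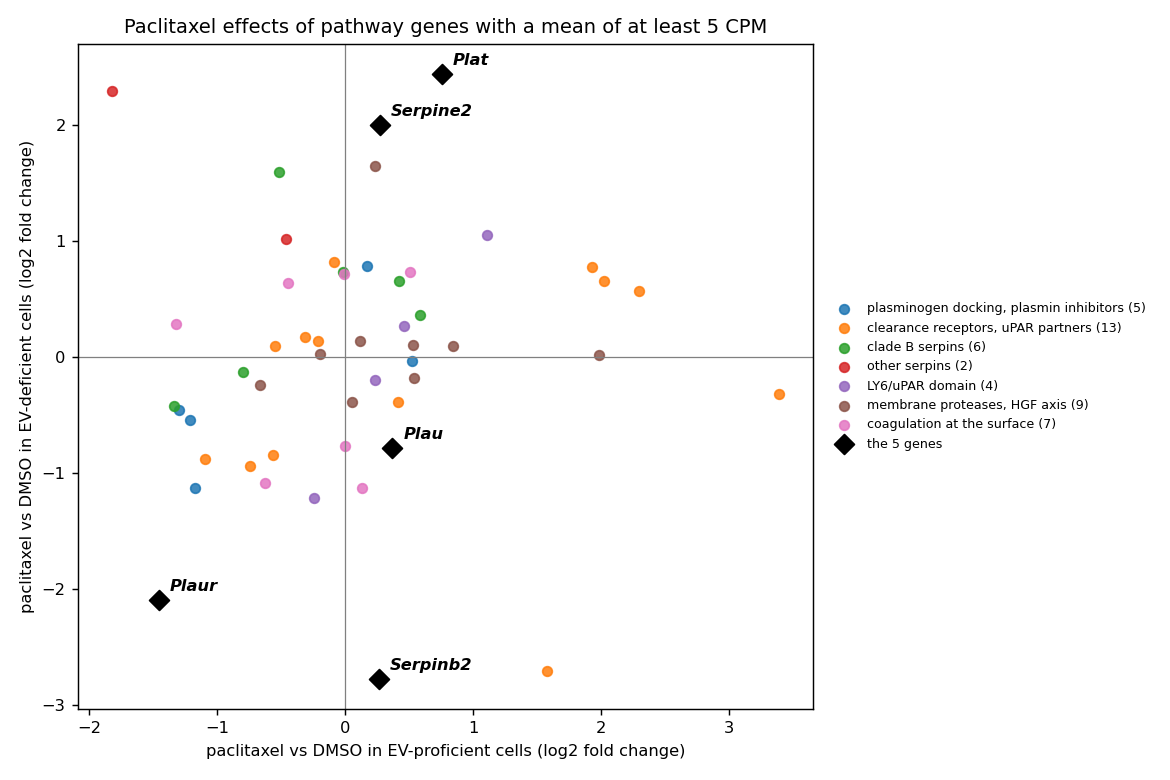
Log2 fold change with paclitaxel in EV-proficient (horizontal axis) against EV-deficient cells (vertical axis) from edgeR; circles are list genes with a mean of at least 5 CPM, coloured by list, and diamonds are the 5 genes. Plaur, at -1.45 and -2.10, lies where both effects are negative, while Serpinb2, at 0.26 and -2.77, is near the bottom.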

How the data were processed

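Poly(A) RNA of 12 MOC2 libraries was prepared with a stranded TruSeq kit, per the labels' protocols. The authors deposited raw read counts per gene. STAR 2.5.0a and the build GRCm38 are named in the submitters' processing notes, and the counting program, annotation release and use of strand are not given in the sources used here. The 2 added rows (gfp and dngfr, at most 0.00142% of a library) stayed out of library sizes and tests. Rows without a symbol, 3995 in all, held at most 0.102% of counts.

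Of 35104 genes with any count, 18108 passed edgeR's filterByExpr (minimum count 10). Libraries were scaled by TMM (factors 0.891 to 1.15), and 6 contrasts were tested in 1 quasi-likelihood fit of all 12 libraries with edgeR 4.0.16 in R 4.3.3, with Benjamini-Hochberg adjustment over all tested genes and a threshold of 0.05. The script was tested on simulated data. RPKM used union exon lengths of GENCODE's GRCm38 annotation, found for 99.92% of tested genes. Replicate libraries differed by 4.34 to 31.4 times the counting noise (chi-square per degree of freedom), so each was counted separately. Alternatives were other scalings, filters, DESeq2 1.42.0, limma-voom (limma 3.58.1), a replicate block, fits restricted to a contrast's own groups, omission of single libraries and, added after the data were seen, an exchange of the EV labels of the paclitaxel libraries. For levels they were RPKM over the longest transcript and CPM on unscaled library totals. On unscaled totals 11 of the 20 group levels moved by at least their SD. From each list at most 4 genes were eligible to be named, those with the largest averaged paclitaxel change among called genes with a mean of at least 5 CPM, plus at most 2 for the interaction; for each of the 5 genes, the 3 most like it. The 5 genes and the lists were chosen with earlier results of these data known. A few items that these rules would name are not reported here.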

Additional observations from a re-analysis of the deposited data

Results flagged for a closer look

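The paclitaxel effect differed between the derivatives for all 5 genes by the interaction test in edgeR, against 40.7% of tested genes. EV-deficient minus EV-proficient, the log2 differences were -1.15 for Plau, 1.69 for Plat, -0.64 for Plaur, 1.72 for Serpine2 and -3.04 for Serpinb2, and their edgeR adjusted p-values were at most 0.00257. With the EV labels of the paclitaxel libraries exchanged, only Serpinb2 of the 5 passed (0.68). The dngfr sequence, which no comparison above uses, averaged 10.9 CPM in EV-deficient paclitaxel libraries against 2.14 CPM in EV-deficient DMSO libraries. The direction was the reverse in the EV-proficient cells, with means of 8.99 CPM under DMSO and 3.24 CPM under paclitaxel. Its part in the differences between the derivatives was not tested.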

How the results depend on the processing

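With the labels as given, under the other scalings, filters, tools, block and left-out libraries, no difference reported for the 5 genes changed sign, and of the refitted values 565 kept their side of the threshold, 3 gained a call and 22 lost one. Serpine2 with paclitaxel in the EV-proficient cells passed with upper-quartile scaling (0.34) and with a filter of 1 CPM in 3 libraries (0.29), and ran from 0.16 to 0.36 with a library left out. Serpinb2 in the same comparison ran from 0.14 to 0.32 and lost its call in 2 of 12 such fits. Plaur between EV labels under DMSO was not called with median-of-ratios scaling (0.32), upper-quartile scaling (0.31) or DESeq2 (0.32), and ran from 0.25 to 0.40, losing its call in 7 of 12. Plaur between EV labels under paclitaxel was not called with median-of-ratios scaling (-0.28), upper-quartile scaling (-0.21), the 1 CPM filter (-0.26), DESeq2 (-0.29) or only the groups compared (-0.28), and ran from -0.47 to -0.13, losing its call in 4 of 12. Averaged Plau was not called with upper-quartile scaling (-0.084). The cause was not tested. Exchanging the EV labels of the paclitaxel libraries, an alternative added after the data were seen, turned Plau (-0.18) and Serpinb2 (-1.60) in the EV-proficient cells and made Serpine2 there pass (1.28). It turned the EV-label differences under paclitaxel by construction (Plau 0.55, Plat -0.92, Plaur 0.31, Serpine2 -1.003, Serpinb2 1.86). The interactions became -0.049 (Plau), -0.15 (Plat), -0.034 (Plaur), -0.28 (Serpine2) and 0.68 (Serpinb2), and 1739 genes passed in place of 7372. Which assignment holds was not tested. Upper-quartile scaling moved the median of all genes by 0.18 (log2) for paclitaxel in the EV-deficient cells and by 0.12 for the interaction and the average. The share of calls that were higher went from 51.5% to 63.4% for paclitaxel in the EV-deficient cells, from 42.4% to 58.2% between EV labels under paclitaxel and from 41.4% to 53.9% for the interaction. Same-numbered libraries did not pair: 0 of 18 correlations of their deviations exceeded 0.1, and 4 of 12 libraries correlated best with their own number. With the replicate block no call of the 5 genes changed and the Plaur interaction was -0.66.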
